A study of Homo sapiens with 24 samples.

Results

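Transcripts of SKBR3 cells with NHERF1 knocked down were compared, gene by gene, with those of SKBR3 cells with HER2 knocked down. The labels place 6 arrays in each of these groups, 12 of the 24 arrays of the series, and all 12 were used. The other arrays are 6 of control cells, which give the reference level, and 6 of PMCA2 knockdown cells, which entered the normalization, the filter on dim probes, the choice of probe and the shared estimate of spread. SKBR3 is an established human breast cancer line in which ERBB2, which encodes the receptor HER2, is amplified. All groups, the control included, share 48 h of infection with lentiviral particles carrying short hairpin RNAs. The source name of the control gives no hairpin, and no label gives a hairpin sequence or says whether replicates came from separate cultures. The p-values therefore cover array-to-array spread alone, and that spread may be technical.

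NHERF1 is a scaffold with PDZ domains that links membrane proteins to ezrin and the cortical actin beneath the membrane. HER2 is a receptor tyrosine kinase without a ligand of its own; it pairs with EGFR and HER3 and signals through the ERK kinases and through PI3K and AKT, which hold FOXO transcription factors out of the nucleus. NHERF1, ezrin and the calcium pump PMCA2 have been described beside HER2 in membrane domains of breast cancer cells. The comparison addresses which transcripts differ when the scaffold, rather than the receptor, is targeted.

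Values are log2 intensities, and a difference is the NHERF1 knockdown minus the HER2 knockdown, so that a positive value means higher with NHERF1 targeted. A probe's level was not set against that of another probe. A gene was called at a limma adjusted p below 0.05 (Benjamini-Hochberg over 12445 genes). The floor was set at an intensity of 106, below which 95% of the values of olfactory receptor probes lay. Where the probe of a group lay at the floor the fold is a bound, written with the words at least, and sets the brighter group's mean against the higher of the lowest signal of probes above the floor and the dim probe's own. The background correction adds a small offset, so folds of dim genes are understated. Ranges in the text run from the lowest to the highest of the 6 arrays of a group with the median in brackets, and control levels are means ± SD over 6 arrays.

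Of the 12445 genes, 3341 (26.8%) were called higher and 3166 (25.4%) lower in the NHERF1 knockdown, 52.3% in all. With a difference of at least 1.5-fold as well, 673 genes (5.41%) were higher and 627 (5.04%) lower. These shares are the reference for every list count below. At 2-fold the counts were 250 (2.01%) and 184 (1.48%), 434 genes (3.49%) in all. The median difference over all genes was 0.006, the median size of a difference 0.177 and the median standard error (SE) 0.069, all in log2. Both knockdowns were set against the same control arrays, from which 1601 genes differed at 2-fold in the NHERF1 knockdown and 1624 in the HER2 knockdown. Arrays within a knockdown correlated across genes at r of 0.994 to 0.997, and arrays of the different knockdowns at 0.976 to 0.979. Each group lies on both chips, 3 arrays on each, but at positions that no other group used, so that position and group cannot be told apart. All 434 genes at 2-fold were also called, in the same direction, on each chip taken alone. They were chosen on the arrays of both chips together, so this is not a separate check.

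**Figure D1:**
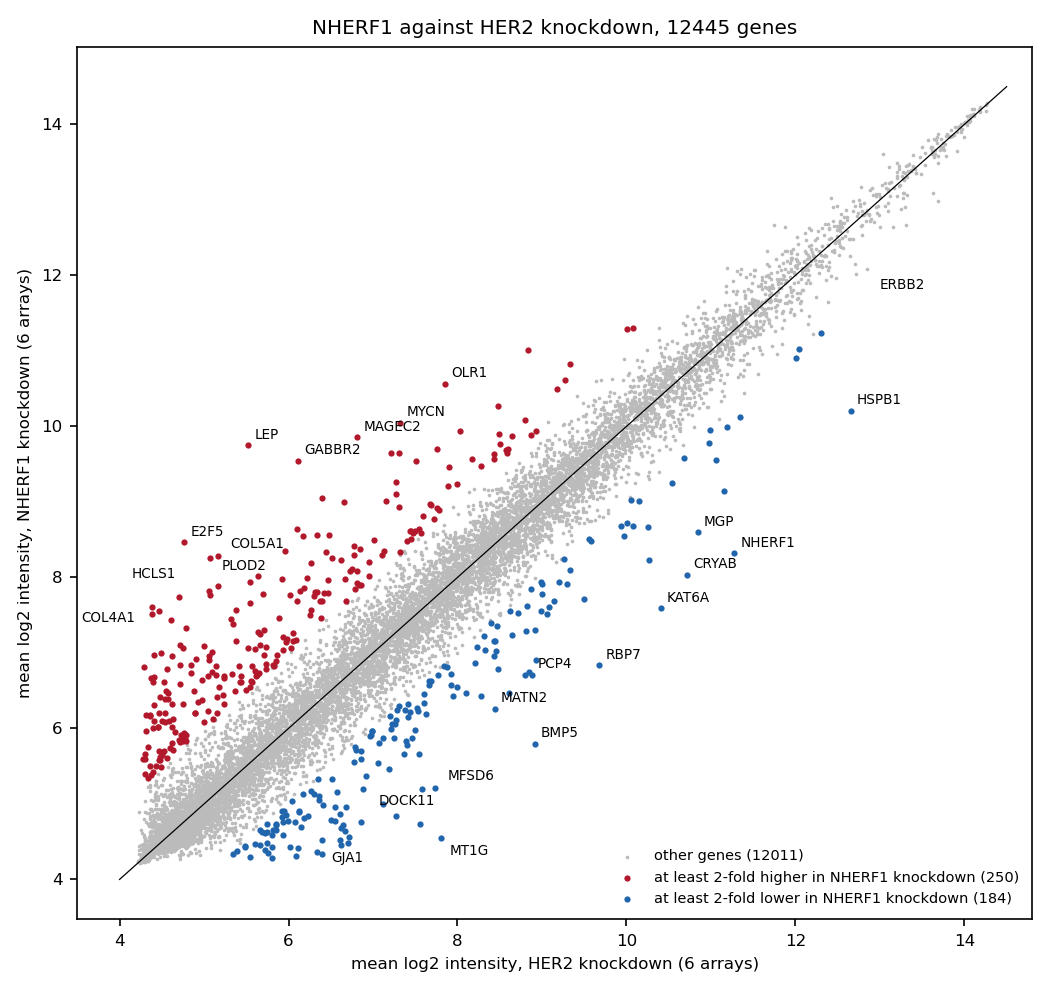
Mean log2 intensity of 12445 genes over 6 HER2 knockdown arrays (horizontal axis) and 6 NHERF1 knockdown arrays (vertical axis), 1 point per gene, with the line of equal levels. The 250 genes called and at least 2-fold higher in the NHERF1 knockdown are red and the 184 lower are blue. Names are printed for ERBB2 and for most of the 15 largest differences each way. RGL1, PPM1H, PI3, SLPI, CPB1, MOXD1 and ODAD4 are among these differences but carry no name.

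Of 46 luminal epithelial markers, which mark the labelled cell type, 39 were kept. Above the floor on all 6 arrays were 27 in the NHERF1 knockdown, 27 in the HER2 knockdown and 37 in control. Above it on no array were 7, 8 and 0 in the same order. The summed intensity of all 39 was 27968 to 28496 with NHERF1 targeted, 31710 to 33267 with HER2 targeted and 72075 to 76630 in control. CDH1, ESR1 and PGR were at the floor, and SKBR3 is known to lack the first and to be negative for both hormone receptors. ANKRD30A, KIT and ESRP2 were not kept either. Of 58 trophoblast and placental genes 43 were kept, and their sum was 45306 to 48072 with NHERF1 targeted, 47654 to 49478 with HER2 targeted and 21665 to 22694 in control. Luminal sums in both knockdowns thus lay below, and placental sums above, every control array, and the part of either in the differences below was not tested. In bulk RNA, a change in the mix of cells and a change within cells cannot be told apart.

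The promoters of several genes described below are shown because metal, interferon and amino acid response elements are known from textbook examples of these families. Each is the 250 bases before the start of the gene in RefSeq's GRCh38.p14, printed 5′ to 3′ on the strand of the gene, with matches in capitals on either strand; adjoining capitals can hold overlapping matches. MT1X and the windows shown were picked with the values known. Each window shown is the first of its gene that holds the element searched. A match was therefore fixed beforehand, so the matches shown cannot be set against the shares of windows given here. The core of the metal response element, searched as TGCACNC and TGCGCNC, occurs in 24.8% of 35116 promoter windows of that length. MT1H, on the forward strand at chr16:56669564-56669813, has 8 matches, MT2A, forward at chr16:56608334-56608583, has 7, and MT1X, forward at chr16:56682220-56682469, has 4. MT1H and MT2A were lower in the NHERF1 knockdown and MT1X was not called.
MT1H: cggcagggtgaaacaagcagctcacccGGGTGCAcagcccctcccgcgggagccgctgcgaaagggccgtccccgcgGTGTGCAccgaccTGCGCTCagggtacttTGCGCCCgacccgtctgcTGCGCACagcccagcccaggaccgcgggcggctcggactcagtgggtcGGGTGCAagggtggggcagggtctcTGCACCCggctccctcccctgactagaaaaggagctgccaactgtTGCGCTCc
MT2A: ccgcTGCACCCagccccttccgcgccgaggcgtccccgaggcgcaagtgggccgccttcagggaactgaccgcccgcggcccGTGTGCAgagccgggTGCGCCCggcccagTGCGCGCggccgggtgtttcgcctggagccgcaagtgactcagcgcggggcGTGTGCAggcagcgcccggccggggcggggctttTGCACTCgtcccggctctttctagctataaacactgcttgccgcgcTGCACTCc
MT1X: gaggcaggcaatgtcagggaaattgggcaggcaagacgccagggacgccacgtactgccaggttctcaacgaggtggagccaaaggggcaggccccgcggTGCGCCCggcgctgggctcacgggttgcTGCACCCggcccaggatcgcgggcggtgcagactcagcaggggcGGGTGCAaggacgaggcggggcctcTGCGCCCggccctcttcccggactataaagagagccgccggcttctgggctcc
The interferon response element, searched as GAAANNGAAA, occurs in 3.02% of windows. GBP1, on the reverse strand at chr1:89065209-89065458, has 1 match and HERC5, forward at chr4:88456869-88457118, has 3. Both were higher in the NHERF1 knockdown.
GBP1: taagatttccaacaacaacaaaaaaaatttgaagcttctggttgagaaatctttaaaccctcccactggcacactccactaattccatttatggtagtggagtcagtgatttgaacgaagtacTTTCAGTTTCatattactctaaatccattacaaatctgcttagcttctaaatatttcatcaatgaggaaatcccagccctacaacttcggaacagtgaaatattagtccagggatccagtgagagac
HERC5: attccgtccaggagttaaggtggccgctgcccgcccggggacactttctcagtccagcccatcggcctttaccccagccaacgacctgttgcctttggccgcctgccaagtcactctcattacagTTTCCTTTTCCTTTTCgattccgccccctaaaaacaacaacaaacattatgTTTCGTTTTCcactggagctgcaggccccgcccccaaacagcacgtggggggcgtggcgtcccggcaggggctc
The amino acid response element, searched as TGATGCAA and TGATGAAA, occurs in 1.7% of windows. ASNS, on the reverse strand at chr7:97872409-97872658, has 1 match and was lower in the NHERF1 knockdown. The amino acid response genes described below were counted as genes with a match in any of their windows. The element was found for 1 of 5 genes with a window among those at least 1.5-fold lower, ASNS. Among those at least 1.5-fold higher it was found for 2 of 3, JDP2 and SLC1A5. Counts of genes cannot be set against the share of single windows.
ASNS: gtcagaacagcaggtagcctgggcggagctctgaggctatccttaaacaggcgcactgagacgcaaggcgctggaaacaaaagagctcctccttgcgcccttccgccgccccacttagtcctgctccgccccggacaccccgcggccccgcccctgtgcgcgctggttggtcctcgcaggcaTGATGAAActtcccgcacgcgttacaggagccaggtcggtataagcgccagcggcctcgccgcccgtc

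The targeted genes came first. NHERF1 itself read 8.21 to 8.39 (median 8.34) on NHERF1 knockdown arrays and 11.17 to 11.31 (median 11.30) on HER2 knockdown arrays, against 11.95 ± 0.04 in control. Every NHERF1 knockdown array lay below every other array, at a mean of 8.10% of control, and the HER2 knockdown stood at 62.9%. The difference was 7.77-fold (log2 -2.96, SE 0.05, limma adjusted p = 1.03e-24). ERBB2 read 11.98 to 12.23 (median 12.07) on NHERF1 knockdown arrays and 12.81 to 12.89 (median 12.86) on HER2 knockdown arrays, with 13.76 ± 0.03 in control. It was below control in both knockdowns and lower by 1.7-fold in the NHERF1 knockdown (log2 -0.76, SE 0.04, limma adjusted p = 3.52e-14), at 31.5% of control against 53.3%. A dimmer ERBB2 probe differed by -0.30 in the same direction, and another lay near the floor. ERBB2 was thus lower where NHERF1 was targeted than where HER2 was, and its level does not check the HER2 label. ATP2B2, the gene of PMCA2, was at the floor in both groups, and in control and the PMCA2 knockdown as well.

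**Figure D2:**
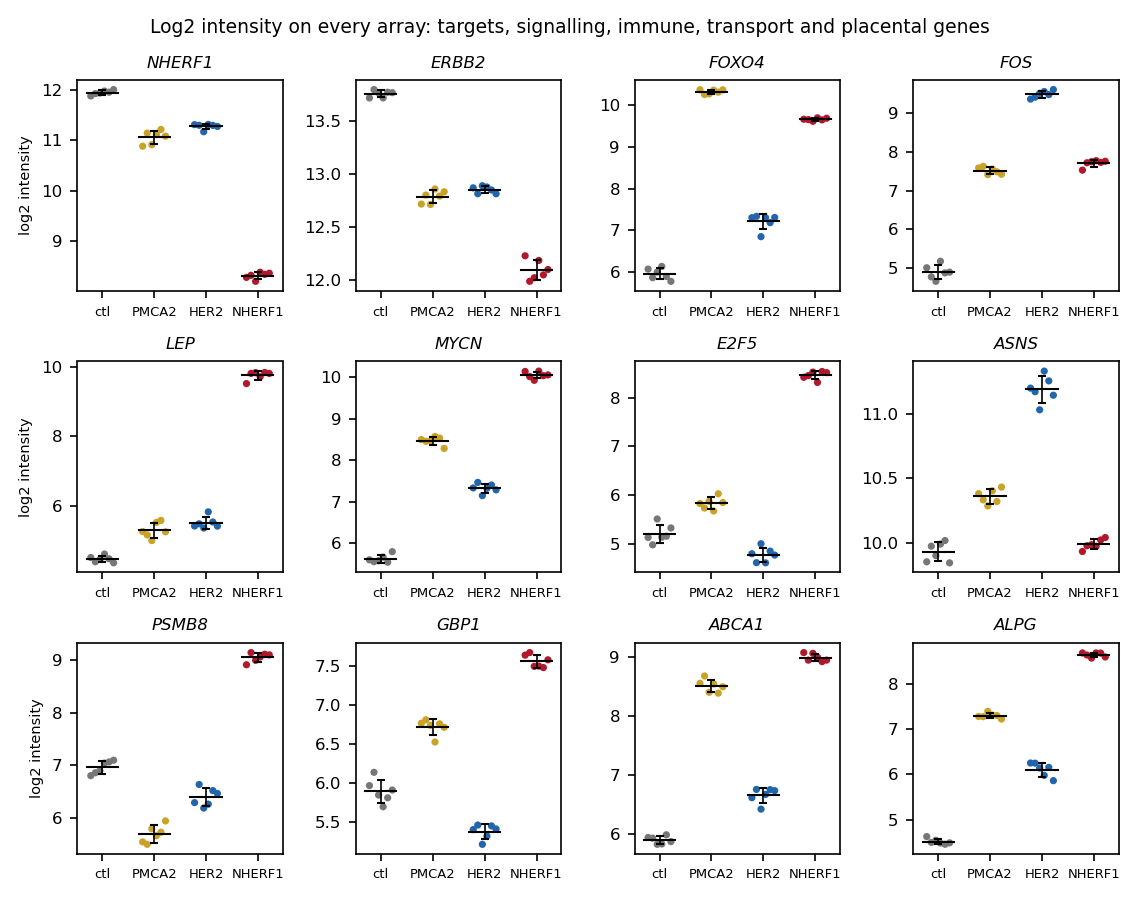
Log2 intensity (vertical axes, each with its own range) on every array for 12 genes: the targets, signalling, immune, transport and placental genes. Points are arrays of the control (ctl) and of the PMCA2, HER2 and NHERF1 knockdowns, bars are means ± SD (n = 6 arrays), and in each panel the NHERF1 and HER2 knockdown arrays do not overlap.

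The 15 genes furthest above the HER2 knockdown were led by LEP, which encodes the hormone leptin. LEP read 9.51 to 9.83 (median 9.81) on NHERF1 knockdown arrays and 5.38 to 5.84 (median 5.47) on HER2 knockdown arrays, and was at the floor in control. Every NHERF1 knockdown array stood far above every other array, a difference of 18.7-fold (log2 4.23, SE 0.09, limma adjusted p = 1.57e-23), while a second LEP probe gave 2.04. E2F5, a member of the E2F family that represses genes together with pocket proteins, read 8.32 to 8.54 (median 8.49) on NHERF1 knockdown arrays and 4.60 to 5.0 (median 4.78) on HER2 knockdown arrays, 12.9-fold apart (log2 3.70, SE 0.08, limma adjusted p = 2.61e-23). Its control level of 5.20 ± 0.19 lay nearer to that of the HER2 knockdown. MYCN, the neuronal relative of the MYC transcription factor, read 9.92 to 10.14 (median 10.04) on NHERF1 knockdown arrays and 7.14 to 7.46 (median 7.33) on HER2 knockdown arrays, 6.62-fold apart, and 5.62 ± 0.10 in control. GABBR2, a subunit of the GABA-B receptor, differed by 10.8-fold, and COL4A1, COL5A1 and PLOD2 are described with the matrix genes.

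HCLS1, an actin-binding relative of cortactin best known from blood cells, was at the floor on every HER2 knockdown array and read 7.55 to 7.65 (median 7.61) on the NHERF1 knockdown arrays, at least 7.78-fold higher. CPB1, a carboxypeptidase known from the pancreas, was likewise at the floor with HER2 targeted and at least 7.5-fold higher with NHERF1 targeted. Both were at the floor in control as well. PI3 and SLPI encode elafin and the secretory leukocyte protease inhibitor, a pair of related inhibitors of neutrophil elastase. PI3 was at least 6.72-fold higher (control 5.97 ± 0.15) and SLPI 6.54-fold higher (control 8.72 ± 0.15). SLPI in the NHERF1 knockdown thus lay nearer to control than in the HER2 knockdown. The same held for RGL1, an exchange factor for Ral GTPases (6.78-fold higher, 7.69 to 8.0, median 7.82 against 4.93 to 5.25, median 5.04, control 8.23 ± 0.13), for the phosphatase gene PPM1H (8.23-fold higher, control 8.82 ± 0.12) and for OLR1, a receptor for oxidised LDL (6.57-fold higher, 10.45 to 10.66, median 10.57 against 7.80 to 7.91, median 7.85, control 11.13 ± 0.05).

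Among the 15 genes furthest below the HER2 knockdown, MT1G and BMP5 led and are described with their families. RBP7, a cellular retinol-binding protein, read 6.59 to 7.13 (median 6.84) on NHERF1 knockdown arrays and 9.54 to 9.88 (median 9.66) on HER2 knockdown arrays, 7.15-fold apart (log2 -2.84, SE 0.09, limma adjusted p = 5.36e-20), and was at the floor in control. KAT6A, a histone acetyltransferase, read 7.46 to 7.66 (median 7.63) on NHERF1 knockdown arrays and 10.12 to 10.77 (median 10.39) on HER2 knockdown arrays, 7.03-fold apart; its control level of 7.51 ± 0.13 lay close to that of the NHERF1 knockdown. DOCK11, an exchange factor for CDC42, read 4.52 to 5.04 (median 4.71) on NHERF1 knockdown arrays and 7.32 to 7.84 (median 7.54) on HER2 knockdown arrays, and control stood above both at 8.90 ± 0.12. On 3 of 6 NHERF1 knockdown arrays DOCK11 was above the floor. PCP4, a small calmodulin-binding protein, was 4.49-fold lower (control 8.25 ± 0.13). MFSD6 was 5.74-fold lower (control 8.95 ± 0.07), MOXD1 5.4-fold lower (control 4.60 ± 0.10), and ODAD4, named for a docking complex of ciliary dynein arms, 5.18-fold lower (control 5.10 ± 0.14). In each of these genes no NHERF1 knockdown array reached the lowest HER2 knockdown array, which follows from their being picked for large differences.

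**Figure D3:**
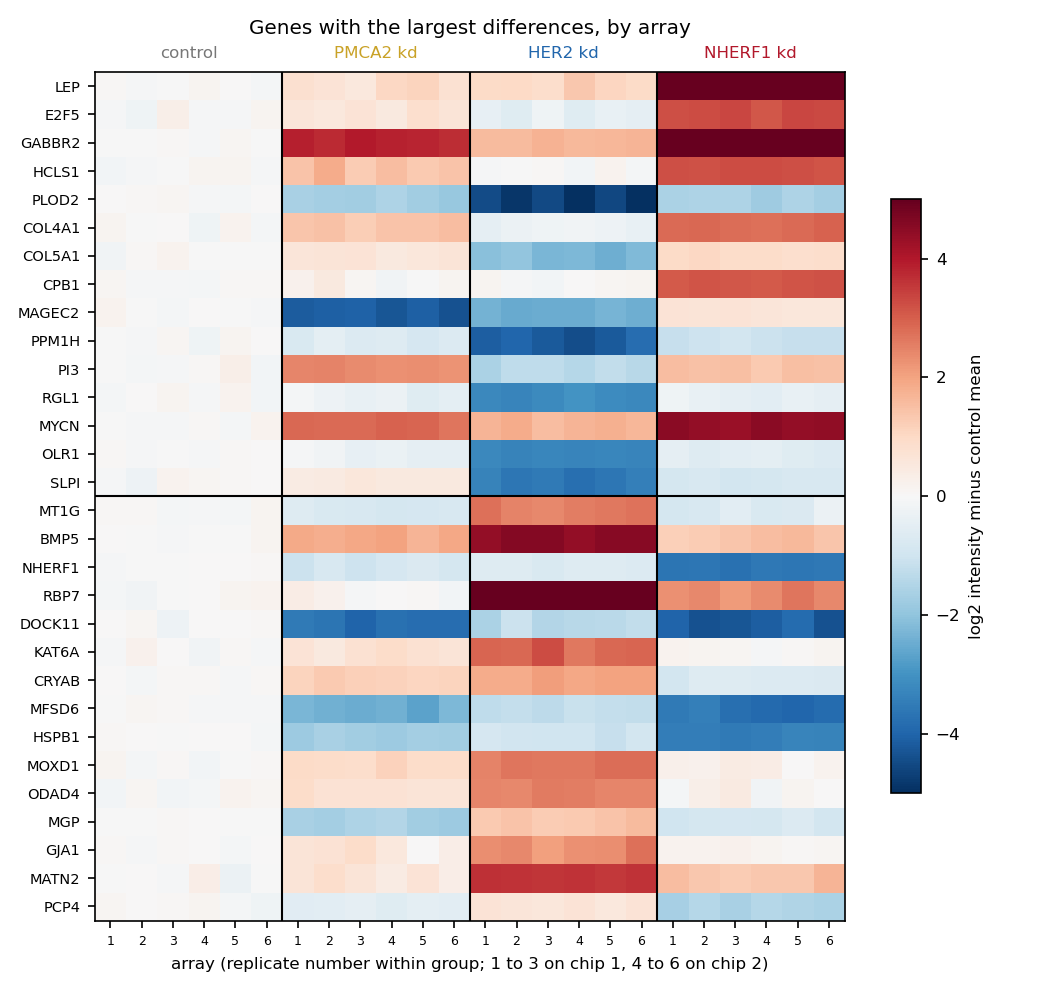
Log2 intensity minus the control mean of each gene (colour, drawn up to 5 in either direction) for the 15 genes furthest above and the 15 furthest below the HER2 knockdown (rows), on the 24 arrays by group (columns). The arrays of a group resemble each other in every row, and some genes, among them SLPI, OLR1 and PPM1H, lie nearer to control in the NHERF1 knockdown while others, among them MFSD6, HSPB1 and DOCK11, lie nearer to it in the HER2 knockdown.

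Among the receptors of the ERBB family, EGFR read 10.09 to 10.19 (median 10.16) on NHERF1 knockdown arrays and 10.43 to 10.57 (median 10.49) on HER2 knockdown arrays (difference -0.34, SE 0.04, limma adjusted p = 2.13e-07), but its other probes gave 0.03 to 0.50, of the opposite sign. ERBB3, the gene of HER3, differed by -0.20 with overlapping groups (limma adjusted p = 0.0013), and its other probes gave 0.10 to 0.14, also opposite. Neither therefore has a settled direction, and no fold is given. Of 18 tested ERBB receptors, ligands and regulators, 4 were higher and 7 lower. Over all genes 26.8% were higher and 25.4% lower, the reference for the neighbours of ERBB2 too. Past 1.5-fold were ERRFI1, an inhibitor of the EGFR kinase (1.57-fold higher), and RNF41, a ubiquitin ligase for HER3 (1.53-fold lower), beside ERBB2. Of 26 tested neighbours of ERBB2 in 17q12, which share its extra copies in such tumours, 4 were higher and 10 lower, with a median of -0.11. PPP1R1B, a phosphatase inhibitor, was the one neighbour past 1.5-fold (1.51-fold lower), and its other probe gave -0.17.

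Of 25 tested genes of the ERK pathway's feedback 9 were higher and 5 lower, against 26.8% and 25.4% of all genes. At 1.5-fold it was 3 and 5, against 5.41% and 5.04%. FOS, the immediate early transcription factor, read 7.53 to 7.78 (median 7.74) on NHERF1 knockdown arrays and 9.37 to 9.62 (median 9.50) on HER2 knockdown arrays, 3.44-fold lower with NHERF1 targeted (log2 -1.78, SE 0.07, limma adjusted p = 6.51e-18). Control FOS was 4.90 ± 0.18, so both knockdowns lay above it. The Sprouty inhibitors of the pathway split. SPRY1 was 2-fold lower (7.27 to 7.55, median 7.40 against 8.32 to 8.47, median 8.40, control 8.87 ± 0.08) and SPRY4 1.86-fold higher (6.35 to 6.57, median 6.46 against 5.36 to 5.74, median 5.63, control 7.92 ± 0.14), with 0.21 from SPRY4's other probe. The ERK phosphatase gene DUSP5 was 1.84-fold higher, and PHLDA1 1.63-fold lower with -0.14 from its other probe.

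Of 32 tested genes of PI3K signalling, insulin receptor substrates and FOXO targets, 10 were higher and 8 lower, near the 26.8% and 25.4% of all genes. FOXO4, one of the FOXO factors themselves, read 9.60 to 9.69 (median 9.65) on NHERF1 knockdown arrays and 6.85 to 7.34 (median 7.30) on HER2 knockdown arrays, 5.41-fold higher (log2 2.44, SE 0.07, limma adjusted p = 6.86e-21), and its control level was 5.96 ± 0.14. It was the largest difference of this list. TRIB1, a pseudokinase (1.98-fold lower), CITED2 (1.81-fold), KLF6 (1.69-fold) and DEPTOR, an inhibitor of mTOR (2.02-fold), were all lower. For DEPTOR the other probe gave -0.59, and its control level of 6.54 ± 0.06 was near that of the HER2 knockdown (6.03 to 6.49, median 6.41).

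Among NHERF scaffolds, the ezrin family and their partners, 7 of 25 tested genes were higher and 8 lower. These shares were near the 26.8% and 25.4% of all genes. The targeted gene NHERF1 is itself on this list and is counted among those lower. PODXL, podocalyxin, which binds NHERF1 and ezrin at the apical membrane, was 1.87-fold lower (9.20 to 9.43, median 9.36 against 10.17 to 10.31, median 10.26, control 7.51 ± 0.09). PDGFRB, a receptor known to bind the PDZ domains of NHERF1, was at the floor with HER2 targeted and in control, and at least 2.9-fold higher with NHERF1 targeted. ATP2B4, the gene of the calcium pump PMCA4, was 1.8-fold lower, with -0.81 to -0.19 from its other probes. Of 30 tested calcium genes, 8 were higher and 15 lower, against the same shares, with a median of -0.14. A pair of calmodulin-dependent kinases moved in opposite directions: CAMK2D was at the floor with HER2 targeted and at least 2.55-fold higher (control 5.88 ± 0.09, other probe 0.95), while CAMK1D was 3.22-fold lower (control 4.60 ± 0.18, other probes -1.11 to -0.99). The calcineurin subunit gene PPP3CC was 1.82-fold lower, and ITPR3, a calcium release channel of the endoplasmic reticulum, 2.27-fold higher, though both groups lay below its control level of 10.59 ± 0.09.

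Metallothioneins, small proteins that bind zinc and copper, included the largest difference downward of all genes, that of MT1G. Of 14 tested metallothionein and zinc transport genes, 9 were lower and 2 higher, against 25.4% and 26.8% of all genes. The counts at 1.5-fold were 5 lower and 1 higher, against 5.04% and 5.41%, and the median was -0.23. MT1G read 4.32 to 4.94 (median 4.46) on NHERF1 knockdown arrays and 7.62 to 7.97 (median 7.81) on HER2 knockdown arrays, at least 8.60-fold lower (log2 -3.26, SE 0.08, limma adjusted p = 5.38e-22). Control stood between at 5.21 ± 0.10, and 2 of 6 NHERF1 knockdown arrays were above the floor. MT1H was at the floor on every NHERF1 knockdown and control array and read 5.81 to 6.44 (median 6.05) with HER2 targeted, at least 2.72-fold apart. MT1F was at least 2-fold lower. MT2A, the most widely used member of the family, read 7.65 to 8.0 (median 7.89) on NHERF1 knockdown arrays and 8.71 to 8.99 (median 8.88) on HER2 knockdown arrays, 2.04-fold lower (log2 -1.03, SE 0.06, limma adjusted p = 4.69e-14), and control was above both at 10.47 ± 0.08. MT1X, whose promoter is printed above with 4 matches, differed by -0.03. SLC39A8, an importer of zinc and manganese, was 2.14-fold higher, with 0.42 from its other probe. Metallothionein genes are near-identical copies, so a probe of one may also read another.

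Of 41 tested heat shock and chaperone genes 12 were higher and 12 lower, near the 26.8% and 25.4% of all genes. The counts at 1.5-fold were 0 and 3, against 5.41% and 5.04%. The largest differences were those of a pair of small heat shock proteins. HSPB1, which encodes HSP27, read 10.10 to 10.33 (median 10.18) on NHERF1 knockdown arrays and 12.49 to 12.81 (median 12.65) on HER2 knockdown arrays, 5.43-fold lower (log2 -2.44, SE 0.05, limma adjusted p = 2.54e-23). Its control level of 13.63 ± 0.06 lay above both. CRYAB, alpha B-crystallin, a partner of HSPB1, read 7.86 to 8.11 (median 8.08) on NHERF1 knockdown arrays and 10.61 to 10.84 (median 10.72) on HER2 knockdown arrays, 6.39-fold lower (log2 -2.68, SE 0.05, limma adjusted p = 1.11e-23), with control at 8.76 ± 0.07 between the groups. DNAJB4 was 1.51-fold lower. The median of the list was 0.03.

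**Figure D4:**
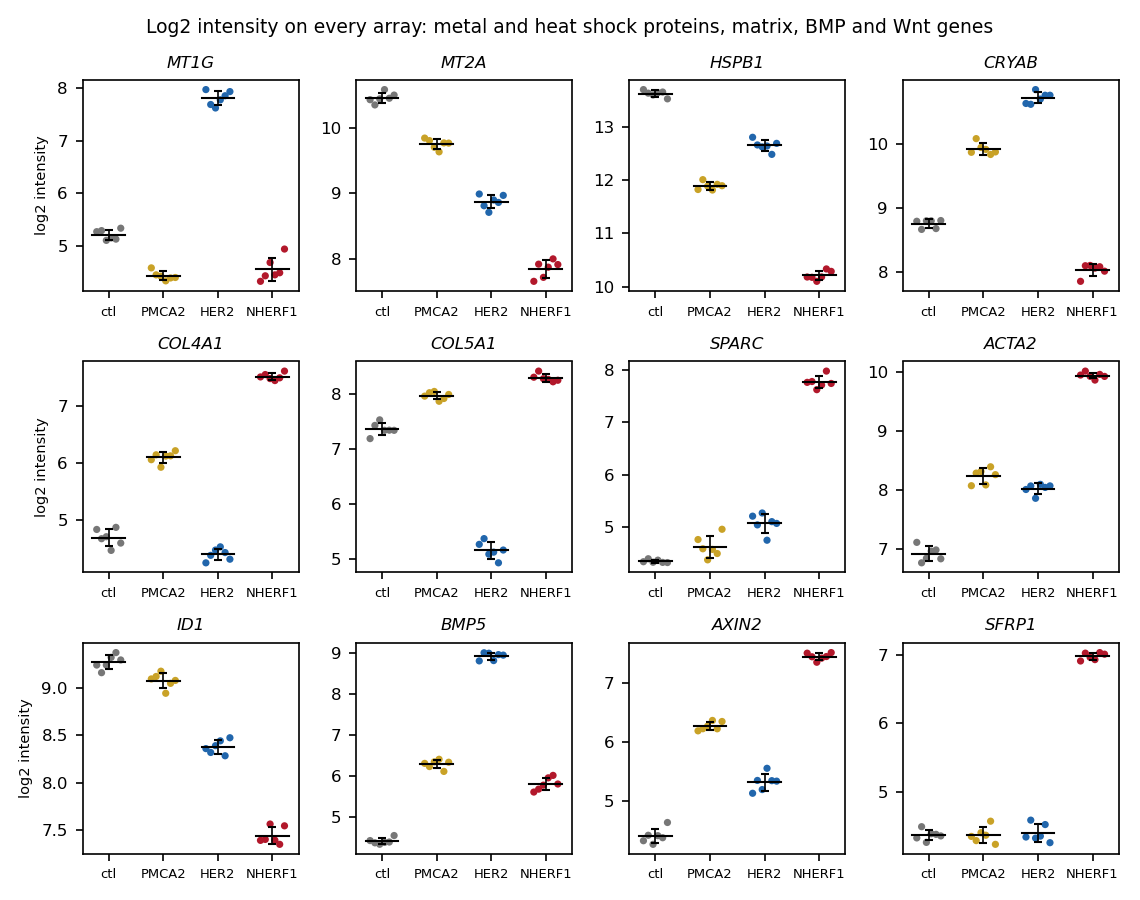
Log2 intensity (vertical axes, each with its own range) on every array for 12 metal and heat shock, matrix, BMP and Wnt genes. Points are arrays of the control (ctl) and of the PMCA2, HER2 and NHERF1 knockdowns, bars are means ± SD (n = 6 arrays), and MT1G, HSPB1 and CRYAB lie lowest of the knockdowns or level with the lowest in the NHERF1 knockdown while COL4A1, SPARC and SFRP1 lie highest there.

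Genes of the extracellular matrix, the fibrous scaffold outside cells, were higher more often than lower. Of 44 tested, 20 were higher and 11 lower, against 26.8% and 25.4% of all genes, with a median of 0.10. At 1.5-fold it was 14 and 2, against 5.41% and 5.04%. COL4A1, a basement membrane collagen, was at the floor on every HER2 knockdown array and read 7.45 to 7.62 (median 7.51) with NHERF1 targeted, at least 7.31-fold higher (log2 3.13, SE 0.06, limma adjusted p = 1.39e-23), with control at 4.68 ± 0.15. COL5A1, a fibrillar collagen, read 8.22 to 8.41 (median 8.27) on NHERF1 knockdown arrays and 4.94 to 5.38 (median 5.15) on HER2 knockdown arrays, 8.71-fold higher. Control COL5A1 was 7.36 ± 0.11, above the HER2 knockdown and below the NHERF1 knockdown. PLOD2, the enzyme that hydroxylates collagen lysines for cross-linking, differed by 9.14-fold in the probe used, but its other probes gave 0.11 to 0.79 only. SPARC, a matrix glycoprotein that binds collagen, read 7.63 to 7.98 (median 7.76) on NHERF1 knockdown arrays and 4.74 to 5.26 (median 5.08) on HER2 knockdown arrays, 6.51-fold higher, and was at the floor in control. FBN2, fibrillin-2, was at least 3.86-fold higher and THBS1, thrombospondin-1, 2.94-fold higher (9.40 to 9.50, median 9.47 against 7.74 to 8.01, median 7.92, control 8.51 ± 0.07).

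The matrix genes did not all go one way. MATN2, matrilin-2, read 6.10 to 6.53 (median 6.20) on NHERF1 knockdown arrays and 8.39 to 8.47 (median 8.45) on HER2 knockdown arrays, 4.53-fold lower, with -1.14 from its other probe, and MGP, which inhibits calcification of matrix, was 4.75-fold lower (8.47 to 8.79, median 8.58 against 10.73 to 11.04, median 10.83, control 9.46 ± 0.04). COL3A1, another fibrillar collagen, was 2.86-fold lower (5.13 to 5.86, median 5.61 against 6.93 to 7.19, median 7.04) and at the floor in control. Of 16 fibroblast markers 6 were kept, of which 4 were higher and 1 lower, against 26.8% and 25.4% of all genes. Their summed intensity was 7257 to 8143 with NHERF1 targeted, 5568 to 6727 with HER2 targeted and 2576 to 2886 in control. The fibroblast markers COL1A1, COL1A2, LUM, FAP and PDGFRA were at the floor. BGN, biglycan, was 2.21-fold higher (9.51 to 9.66, median 9.58 against 8.11 to 8.61, median 8.46, control 6.39 ± 0.06). The part of the fibroblast marker sums in the matrix differences was not tested.

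Of 18 tested basal and mesenchymal markers 6 were higher and 8 lower, against 26.8% and 25.4% of all genes. Their sum was 8813 to 9367 with NHERF1 targeted and 7648 to 8512 with HER2 targeted, both below 14429 to 15256 in control. ACTA2, smooth muscle actin, read 9.86 to 10.01 (median 9.94) on NHERF1 knockdown arrays and 7.86 to 8.10 (median 8.06) on HER2 knockdown arrays, 3.76-fold higher (log2 1.91, SE 0.06, limma adjusted p = 1.12e-19), with control at 6.92 ± 0.13. TAGLN, transgelin, which binds actin, was 3.46-fold higher (10.20 to 10.40, median 10.24 against 8.22 to 8.59, median 8.52). CD44, the hyaluronan receptor, went the other way: it read 6.77 to 7.03 (median 6.90) on NHERF1 knockdown arrays and 8.65 to 9.05 (median 8.97) on HER2 knockdown arrays, 4.09-fold lower (log2 -2.03, SE 0.07, limma adjusted p = 4.6e-19). The HER2 knockdown kept CD44 near its control level of 8.77 ± 0.08. CAV1, caveolin-1, was 2.42-fold lower (9.16 to 9.38, median 9.25 against 10.35 to 10.67, median 10.54), and both groups lay above control at 8.0 ± 0.07. Of 26 tested TGF-beta and YAP targets 12 were higher and 3 lower, against the same shares, with a median of 0.14. BHLHE40 was 1.59-fold higher and CRIM1 1.51-fold lower. PMEPA1, a TGF-beta target, was near the floor in both groups (4.88 to 5.44, median 5.19 against 4.27 to 4.69, median 4.38) and at 10.21 ± 0.09 in control.

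Of 39 tested genes of epithelial junctions and polarity 14 were lower, 3 higher and 22 not called, with a median of -0.03. Over all genes 25.4% were lower and 26.8% higher, the reference for the keratins and luminal markers too. At 1.5-fold 3 were lower, where 5.04% of all genes were. GJA1, connexin 43 of gap junctions, was at the floor on every NHERF1 knockdown and control array and read 6.41 to 7.09 (median 6.66) with HER2 targeted, at least 4.15-fold apart. The desmosome genes PKP2, plakophilin-2 (1.8-fold lower), and EVPL, envoplakin (2.09-fold lower), followed. Of 12 tested keratins 6 were lower and 2 higher; KRT80 was 2.55-fold lower (6.49 to 6.68, median 6.58 against 7.84 to 8.02, median 7.93), and control lay far above both at 11.29 ± 0.07. Of 39 tested luminal markers 14 were lower and 8 higher. TFAP2A, the AP-2 alpha transcription factor of luminal and placental cells, read 8.92 to 9.36 (median 9.14) on NHERF1 knockdown arrays and 10.98 to 11.36 (median 11.12) on HER2 knockdown arrays, 4.04-fold lower (log2 -2.01, SE 0.07, limma adjusted p = 9.67e-19), with -2.12 to -0.22 from its other probes. The surface glycoprotein gene CD24 was 1.53-fold lower, though its other probe gave -0.05, and STARD10, a lipid transfer protein, 1.7-fold higher. AGR3 was at least 1.48-fold lower.

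BMP ligands act through receptor SMADs on targets that include the ID genes. Of 21 tested genes 8 were lower and 7 higher, against 25.4% and 26.8% of all genes, with a median of -0.06. The counts at 1.5-fold were 6 lower and 1 higher, against 5.04% and 5.41%. The ligand gene BMP5 read 5.60 to 6.01 (median 5.78) on NHERF1 knockdown arrays and 8.80 to 9.0 (median 8.95) on HER2 knockdown arrays, 8.65-fold lower (log2 -3.11, SE 0.06, limma adjusted p = 1.74e-23), and was at the floor in control. BAMBI, a decoy receptor and itself a known target, read 9.50 to 9.64 (median 9.54) on NHERF1 knockdown arrays and 11.004 to 11.12 (median 11.07) on HER2 knockdown arrays, 2.83-fold lower, with control at 10.18 ± 0.08 between the groups. The ID genes encode inhibitors of helix-loop-helix factors, and the 3 tested were all lower. ID1 read 7.35 to 7.56 (median 7.40) on NHERF1 knockdown arrays and 8.29 to 8.48 (median 8.38) on HER2 knockdown arrays (1.92-fold lower), ID2 8.10 to 8.35 (median 8.29) against 9.04 to 9.41 (median 9.29) (2.02-fold lower) and ID3 9.28 to 9.49 (median 9.41) against 10.32 to 10.47 (median 10.37) (1.98-fold lower). Control stood above both knockdowns for ID1 (9.28 ± 0.07) and ID3 (12.02 ± 0.05) and level with the HER2 knockdown for ID2 (9.26 ± 0.13). For ID1 the other probe gave -0.50.

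Of 30 tested Wnt pathway genes and targets 11 were higher and 4 lower, against 26.8% and 25.4% of all genes. The counts at 1.5-fold were 6 and 2, against 5.41% and 5.04%, and the median was 0.14. AXIN2, the widely used target of beta-catenin and an inhibitor of the pathway, read 7.36 to 7.52 (median 7.45) on NHERF1 knockdown arrays and 5.13 to 5.56 (median 5.34) on HER2 knockdown arrays, 4.39-fold higher (log2 2.13, SE 0.06, limma adjusted p = 2.41e-20), and was at the floor in control. SFRP1, a secreted antagonist of Wnt ligands, was at the floor in the HER2 knockdown and in control and read 6.91 to 7.03 (median 6.98) with NHERF1 targeted, at least 5.02-fold higher. The receptor gene FZD2 was at least 1.57-fold higher, with control at 5.56 ± 0.16. Other targets of the list went down: CD44, above, and ASCL2, an intestinal stem cell factor (2.1-fold lower, 5.80 to 6.02, median 5.89 against 6.84 to 7.09, median 6.96).

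Interferon-stimulated genes, which cells switch on after sensing virus or cytokine, were higher more often than lower. Of 44 tested, 20 were higher and 8 lower, against 26.8% and 25.4% of all genes, with a median of 0.17. At 1.5-fold it was 11 and 1, against 5.41% and 5.04%. PSMB8, an inducible subunit of the proteasome, read 8.91 to 9.14 (median 9.08) on NHERF1 knockdown arrays and 6.19 to 6.64 (median 6.38) on HER2 knockdown arrays, 6.29-fold higher (log2 2.65, SE 0.08, limma adjusted p = 2.37e-20), with 1.39 to 2.59 from its other probes. Control PSMB8 was 6.96 ± 0.12, above the HER2 knockdown. GBP1, a guanylate-binding GTPase, read 7.49 to 7.68 (median 7.55) on NHERF1 knockdown arrays and 5.21 to 5.46 (median 5.41) on HER2 knockdown arrays, 4.57-fold higher, with control at 5.89 ± 0.15, and its relative GBP2 was 2.39-fold higher. HERC5, the ligase that attaches ISG15, was 2.79-fold higher (8.37 to 8.56, median 8.51 against 6.94 to 7.07, median 7.02) and mostly at the floor in control. PLSCR1, a phospholipid scramblase, was at the floor with HER2 targeted and in control and at least 3.4-fold higher. The element printed above was found for 5 of the 10 genes with a window among the 11 higher at 1.5-fold, and for 24 of 38 among all tested members. Both count genes with a match in any window, so the share of single windows given above is no reference for them.

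For the next 3 lists the shares over all genes are 26.8% higher and 25.4% lower, with 5.41% and 5.04% at 1.5-fold. MHC class I and peptide loading genes gave 10 higher and 1 lower of 15, with a median of 0.27. PSMB9, another inducible subunit of the proteasome, was 1.88-fold higher, with 0.28 from its other probe. Of 40 tested NF-kB factors, cytokines and acute phase genes 20 were higher and 5 lower, with 12 and 1 at 1.5-fold and a median of 0.18. SAA1, serum amyloid A, was 4.36-fold higher in the probe used, but other probes of this near-identical family gave 0.05 to 0.95. IL32, a cytokine, was 2.26-fold higher, SOD2, the mitochondrial superoxide dismutase, 1.67-fold higher, and NFKBIE, an inhibitor of NF-kB, 1.69-fold higher. For IL32 the other probe gave 0.69, and for SOD2 the others gave 0.21 to 0.82. SOCS2, a suppressor of cytokine signalling, was the one member lower at 1.5-fold (7.82 to 8.04, median 7.95 against 9.10 to 9.28, median 9.22, 2.4-fold). Of 24 tested S100 proteins and annexins 12 were higher and 6 lower. S100A8 was 1.7-fold higher (12.56 to 12.78, median 12.62 against 11.74 to 12.14, median 11.84), S100A12 2.75-fold higher, ANXA8 1.96-fold higher with 0.03 from its other probe, and ANXA1 1.57-fold lower.

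Markers of blood and vessel cells were set beside these, where 26.8% of all genes were higher and 25.4% lower. Of 23 haematopoietic markers 9 were kept, with 3 higher and 0 lower; their sum was 1333 to 1481 with NHERF1 targeted, 792 to 979 with HER2 targeted and 1488 to 1631 in control, while PTPRC, CD3D and CD53 were at the floor. The difference lay in CD14 (2.92-fold higher, other probe 0.46), CSF1R (1.98-fold higher, 8.88 to 9.01, median 8.93 against 7.66 to 8.02, median 7.99, control 9.68 ± 0.11) and CORO1A (1.61-fold higher). Of 14 endothelial markers 5 were kept, 2 higher and 2 lower; CDH5 was 1.99-fold higher, the sums were 420 to 463 and 338 to 401, and PECAM1 and KDR were at the floor. The part of these marker sums in the immune gene differences was not tested.

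Exporters of the ABC family that move cholesterol, lipids and drugs included some of the larger differences. Of 15 tested, 5 were higher and 4 lower, against 26.8% and 25.4% of all genes. At 1.5-fold it was 4 and 1, against 5.41% and 5.04%. ABCA1, the cholesterol exporter, read 8.93 to 9.08 (median 8.98) on NHERF1 knockdown arrays and 6.42 to 6.76 (median 6.71) on HER2 knockdown arrays, 5.04-fold higher (log2 2.33, SE 0.06, limma adjusted p = 4.89e-22), with control at 5.90 ± 0.07. ABCG1, its partner in cholesterol export, read 7.87 to 8.03 (median 7.91) against 5.45 to 5.69 (median 5.53) (difference 2.40), but its other probes gave -0.14 to 2.36. ABCB1, which encodes the drug exporter P-glycoprotein, was 4.98-fold higher (6.92 to 7.17, median 7.11 against 4.68 to 4.83, median 4.73, other probe 1.04) and at the floor in control. ABCC3 was 2.21-fold higher, although control lay above both at 9.03 ± 0.06. ABCA3, a phospholipid transporter, was at least 3.94-fold lower (4.41 to 4.75, median 4.67 against 6.36 to 6.92, median 6.68).

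Retinoid genes, of which 15 were tested, gave 6 higher and 5 lower, against 26.8% and 25.4% of all genes. At 1.5-fold it was 5 and 1, against 5.41% and 5.04%. TGM2, transglutaminase 2, a classical target of retinoic acid, read 6.99 to 7.18 (median 7.10) on NHERF1 knockdown arrays and 4.66 to 5.12 (median 5.06) on HER2 knockdown arrays, 4.27-fold higher (log2 2.09, SE 0.07, limma adjusted p = 9.39e-20), with 0.39 to 0.55 from its other probes. DHRS3, which reduces retinal, was 3.19-fold higher (7.82 to 7.97, median 7.83 against 6.04 to 6.33, median 6.18), with control above both at 9.49 ± 0.07. STRA6, the retinol importer, was 1.74-fold higher and ALDH1A2, which makes retinoic acid, at least 1.69-fold higher. CRABP2, the retinoic acid carrier, was 1.58-fold lower, with control at 8.87 ± 0.10.

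Lipid synthesis showed no common direction, where 26.8% of all genes were higher and 25.4% lower. Of 21 tested cholesterol synthesis genes 5 were higher and 7 lower, with a median of -0.04; ACAT2 was 1.66-fold higher, and PMVK (1.69-fold) and IDI1 (1.51-fold) were lower. Of 38 tested fatty acid and lipid droplet genes 9 were higher and 13 lower. PLIN2, which coats lipid droplets, was 1.63-fold higher, whereas ACACB, a carboxylase that restrains fatty acid oxidation (2.12-fold), ELOVL6, an elongase (1.6-fold), and LPIN1, a phosphatidate phosphatase (1.71-fold), were lower. FABP5 differed by 0.81 with a second probe at -0.07, so its direction is not settled.

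Of 40 tested NRF2 targets and glutathione enzymes 12 were higher and 10 lower, near the 26.8% and 25.4% of all genes. At 1.5-fold it was 5 and 1, against 5.41% and 5.04%. AKR1B10, a reductase of aldehydes and of retinal, read 9.60 to 9.68 (median 9.65) on NHERF1 knockdown arrays and 7.08 to 7.44 (median 7.29) on HER2 knockdown arrays, 5.08-fold higher (log2 2.35, SE 0.05, limma adjusted p = 1.05e-22). Control AKR1B10 was 9.35 ± 0.05, nearer to the NHERF1 knockdown. GPX3, a secreted glutathione peroxidase, was 2.8-fold higher (7.61 to 7.90, median 7.83 against 6.22 to 6.39, median 6.33, control 8.0 ± 0.14), SRXN1, sulfiredoxin, 1.59-fold higher, and GSTM3 2.25-fold lower.

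Genes of the amino acid response, which the factor ATF4 drives when amino acids run short, were called in both directions. Of 44 tested, 21 were lower and 16 higher, against 25.4% and 26.8% of all genes, with a median of -0.07. At 1.5-fold it was 7 lower and 3 higher, against 5.04% and 5.41%. ASNS, asparagine synthetase, read 9.93 to 10.04 (median 9.98) on NHERF1 knockdown arrays and 11.03 to 11.33 (median 11.18) on HER2 knockdown arrays, 2.3-fold lower (log2 -1.20, SE 0.05, limma adjusted p = 1.18e-17), and control at 9.93 ± 0.07 lay with the NHERF1 knockdown. PHGDH, which opens serine synthesis, showed the same order, 9.67 to 9.83 (median 9.79) against 10.88 to 11.11 (median 10.97) with control at 9.66 ± 0.03 (2.3-fold lower). NUPR1, a stress-induced nuclear protein (2.79-fold lower, control 9.33 ± 0.10), and SLC3A2, the shared chain of several amino acid transporters (2-fold lower, control 11.25 ± 0.06), were also lower. SLC1A5, a glutamine transporter, was 1.8-fold higher, below its control level of 9.70 ± 0.07.

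In the unfolded protein response and endoplasmic reticulum folding list 17 of 38 tested genes were lower and 9 higher, with a median of -0.10. Over all genes it was 25.4% and 26.8%. The counts at 1.5-fold were 3 lower and 0 higher, against 5.04% and 5.41%. ATF3, a stress-induced transcription factor, read 7.56 to 7.74 (median 7.61) on NHERF1 knockdown arrays and 8.72 to 8.96 (median 8.83) on HER2 knockdown arrays, 2.31-fold lower (log2 -1.21, SE 0.06, limma adjusted p = 2.14e-15), and control was 8.62 ± 0.09. PPP1R15A, GADD34, which restores translation after stress, was 1.77-fold lower, and SEC24D, a coat protein of vesicles leaving the endoplasmic reticulum, 1.6-fold lower.

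Of 43 tested glycolysis and hypoxia-response genes 13 were higher and 14 lower, against 26.8% and 25.4% of all genes. At 1.5-fold it was 7 and 3, against 5.41% and 5.04%. PFKFB3, which makes the activator of phosphofructokinase, read 8.14 to 8.33 (median 8.16) on NHERF1 knockdown arrays and 6.23 to 6.36 (median 6.26) on HER2 knockdown arrays, 3.77-fold higher (log2 1.91, SE 0.04, limma adjusted p = 1.26e-22), below its control level of 9.34 ± 0.03 and with 0.70 from its other probe. LDHB, a lactate dehydrogenase subunit, read 10.91 to 11.10 (median 11.02) on NHERF1 knockdown arrays and 8.54 to 9.23 (median 8.83) on HER2 knockdown arrays, 4.56-fold higher, and the NHERF1 knockdown stood at the control level of 11.02 ± 0.04. ANGPTL4, a hypoxia target that inhibits lipoprotein lipase, was 3.71-fold lower in the probe used, but its other probes gave -0.11 to -0.08. Of 10 tested glucose and monocarboxylate transporters 2 were higher and 2 lower; SLC2A11 was 1.62-fold lower, with other probes from -0.80 to -0.00.

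For the cell cycle lists the shares over all genes are 26.8% higher and 25.4% lower, with 5.41% and 5.04% at 1.5-fold. Of 50 tested mitosis genes 21 were higher and 12 lower, with 1 and 0 at 1.5-fold and a median of 0.11; INCENP, of the chromosomal passenger complex, was the one at 1.57-fold, with 0.33 from its other probe. Of 53 tested S phase genes 23 were higher and 10 lower, with 2 and 0 at 1.5-fold; these were RFC3, of the clamp loader (1.57-fold), and CHAF1B, of the chromatin assembly factor (1.54-fold). Among 28 tested G1 regulators 9 were higher and 7 lower. SKP2, the ubiquitin ligase subunit that targets p27, was 1.67-fold higher (11.999 to 12.14, median 12.04 against 11.09 to 11.42, median 11.34, control 9.57 ± 0.12), and the CDK inhibitor gene CDKN2B 1.55-fold lower. E2F5, described above, was the largest difference of this list. Of 34 tested clustered histone genes 15 were lower, 2 higher and 17 not called, with a median of -0.19. The 5 lower at 1.5-fold were H2BC21 (2.02-fold), H4C8 (1.99-fold), H2BC5 (1.77-fold), H2AC6 (1.62-fold) and H1-2 (1.51-fold), and near-identical histone copies may share probes.

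Of 42 tested apoptosis regulators and p53 targets 18 were higher and 12 lower, against 26.8% and 25.4% of all genes. The counts at 1.5-fold were 3 and 5, against 5.41% and 5.04%. CASP4, an inflammatory caspase, was 2.56-fold higher (8.05 to 8.27, median 8.09 against 6.62 to 6.91, median 6.75, control 8.60 ± 0.08), with 0.26 from its other probe. The death receptor genes TNFRSF21 (2.04-fold) and TNFRSF10A (1.57-fold) were lower, as was the survival gene MCL1 (1.51-fold, other probe -0.39). BID differed by 0.71 with other probes from -0.19 to 0.72, so its direction is not settled. Of 44 tested lysosome and autophagy genes 11 were higher and 17 lower, against 26.8% and 25.4% of all genes. The cathepsin genes CTSH (2.81-fold) and CTSC (2.62-fold) and GLA, alpha-galactosidase (1.62-fold), were higher, as was GABARAPL1, an autophagosome protein (1.84-fold), while the lysosomal protease gene TPP1 was 1.61-fold lower.

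The summed intensity of the placental genes was above control in both knockdowns, though not that of every gene. Between the knockdowns, of 43 tested 19 were higher and 10 lower, against 26.8% and 25.4% of all genes. The counts at 1.5-fold were 7 and 7, against 5.41% and 5.04%. ALPG, a phosphatase close in sequence to the placental one, so that its probe may read both, read 8.57 to 8.69 (median 8.66) on NHERF1 knockdown arrays and 5.86 to 6.25 (median 6.15) on HER2 knockdown arrays, 5.81-fold higher (log2 2.54, SE 0.06, limma adjusted p = 4.85e-23), and was at the floor in control. The steroid-making enzyme genes CYP11A1, for side-chain cleavage (4.1-fold higher, 9.41 to 9.68, median 9.56 against 7.29 to 7.68, median 7.53), and HSD3B1 (2.43-fold higher, 10.04 to 10.15, median 10.06 against 8.63 to 8.91, median 8.85) followed. S100P was 2.49-fold higher, with both groups below control at 12.64 ± 0.04. TFAP2A, on this list too, was lower, and the NHERF1 knockdown arrays lay below its control level of 9.53 ± 0.07.

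The pregnancy-specific glycoproteins, placental proteins of near-identical sequence, stayed close to the floor in both groups. Of 7 tested members PSG4 was called (5.06 to 5.46, median 5.21 against 4.51 to 5.12, median 4.73, limma adjusted p = 7.1e-05) with overlapping groups and a control level of 7.67 ± 0.12, and its other probes gave 0.04 to 0.06. PSG2, PSG3, PSG5, PSG6, PSG7 and PSG9 differed by 0.06 to 0.16 and were not called, with PSG3 and PSG5 above the floor on 1 of 12 arrays each and the others on none. PSG2, PSG6 and PSG7 each had a second probe of the opposite sign.

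The BEX and TCEAL genes, an X-linked family of small proteins, gave 5 higher and 2 lower of 9. Over all genes it was 26.8% and 25.4%. BEX1 read 8.67 to 8.94 (median 8.82) on NHERF1 knockdown arrays and 7.49 to 7.73 (median 7.56) on HER2 knockdown arrays, 2.34-fold higher, with control at 4.80 ± 0.23. TCEAL8 was 2.25-fold higher (control 5.25 ± 0.11) and BEX3 1.89-fold higher (11.98 to 12.22, median 12.13 against 11.06 to 11.24, median 11.21, control 5.52 ± 0.36). Differences of the others were smaller, with TCEAL3 at 0.33, TCEAL4 at 0.13 with overlapping groups, TCEAL1 at -0.38 and BEX4 at -0.34. BEX2 (9.36 to 9.68, median 9.53 against 9.30 to 9.56, median 9.43) and TCEAL9 (12.04 to 12.16, median 12.10 against 11.86 to 12.11, median 12.02) were not called, with differences of 0.11 (95% interval -0.04 to 0.25) and 0.08 (-0.05 to 0.21). A second TCEAL9 probe gave -0.29. Both genes lay far above control in both knockdowns, at 4.73 ± 0.18 and 5.27 ± 0.19 there.

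Cancer-testis genes, normally silent outside the germ line, were higher in 11 and lower in 2 of 19 tested, with a median of 0.34. Over all genes it was 26.8% and 25.4%. The counts at 1.5-fold were 6 and 1, against 5.41% and 5.04%. MAGEC2 read 9.81 to 9.93 (median 9.85) on NHERF1 knockdown arrays and 6.71 to 6.91 (median 6.79) on HER2 knockdown arrays, 8.3-fold higher (log2 3.05, SE 0.06, limma adjusted p = 4.2e-24), nearer to its control level of 9.25 ± 0.09 than the HER2 knockdown. PAGE5 and PAGE2B were at the floor on every HER2 knockdown array, and were at least 4.05-fold and at least 1.66-fold higher with NHERF1 targeted; both were above that in control, at 7.26 ± 0.12 and 6.75 ± 0.09. PAGE4 was 4.24-fold higher (7.64 to 7.88, median 7.77 against 5.57 to 5.84, median 5.69) but at the floor in control, and MAGEB2 at least 2.65-fold higher. Members of the MAGE and PAGE families resemble each other, so probes may be shared.

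Among 11 tested IGF binding proteins, receptors and IGF2BPs 7 were higher and 1 lower. Over all genes 26.8% were higher and 25.4% lower, the reference for the other lists here too. IGFBP3 was 2.14-fold higher (6.77 to 7.11, median 6.99 against 5.70 to 6.07, median 5.84, control 6.31 ± 0.20), IGFBP7 1.63-fold higher and IGF2R, the mannose 6-phosphate receptor, 1.51-fold higher. IGFBP2 was 2.6-fold lower (7.76 to 8.10, median 7.93 against 9.18 to 9.43, median 9.29, control 8.02 ± 0.18). Of 10 tested secretory granule and neuropeptide genes 2 were higher and 3 lower, led by CALCB, which encodes a calcitonin gene-related peptide (at least 2.52-fold higher), and UCHL1, a neuronal deubiquitinase (1.62-fold lower). Of 11 HOX genes 0 were higher and 2 lower, with HOXC13 at 1.74-fold lower.

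Housekeeping lists marked the other end. Of 52 tested oxidative phosphorylation genes 10 were higher and 12 lower, with a median of 0.001 and differences from -0.40 to 0.27. Of 66 tested cytosolic ribosomal protein genes 5 were higher and 18 lower, with a median of -0.02 and differences from -0.52 to 0.41. No member of either list reached 1.5-fold in either direction, against 5.41% and 5.04% of all genes.

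**Figure D5:**
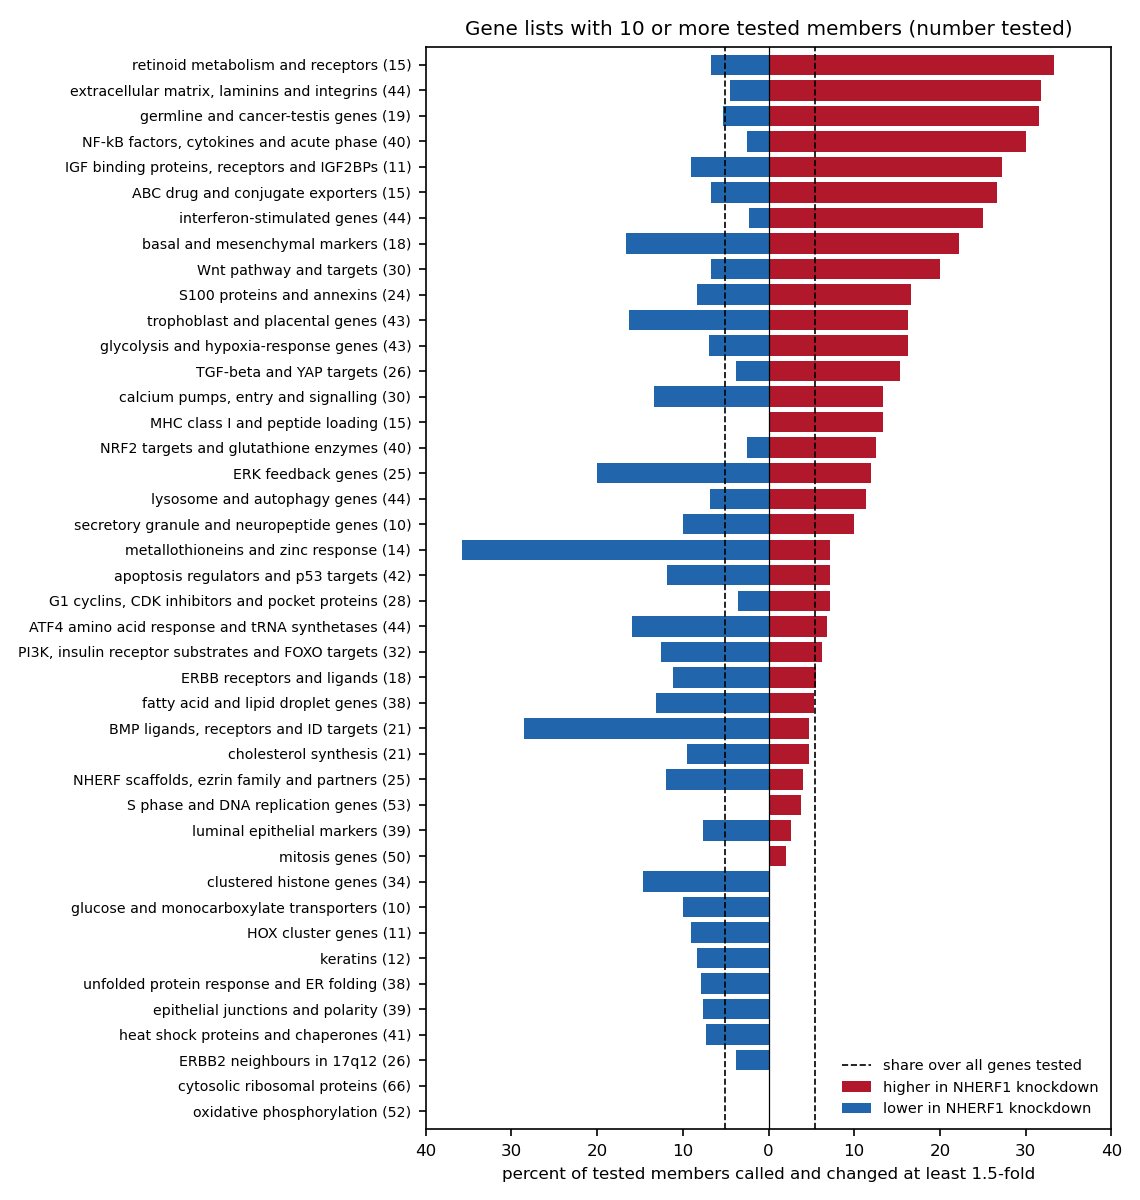
Percent of the tested members of each gene list with 10 or more tested members (number tested in brackets) that were called and at least 1.5-fold higher (red, to the right) or lower (blue, to the left) in the NHERF1 knockdown; dashed lines mark 5.41% and 5.04% of all 12445 genes. Among these lists the retinoid, matrix, cancer-testis and NF-kB genes reach furthest to the right and metallothioneins and BMP genes furthest to the left, while the ribosomal protein and oxidative phosphorylation lists stay at 0.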

How the data were processed

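Gene expression of 24 arrays, 6 per group, was analysed. The authors deposited normalized probe intensity values on a linear scale, but their normalization method is not given in the sources used here. At any rank the 24 arrays differ by no more than 0.406%, and the smallest value is 81.6, so background had not been subtracted. A second table, with 48 columns of per-sample values whose names match no label, was not used. Of 47323 probes, 30113 have 1 gene symbol in the platform annotation, 8 have several and 17202 have none listed; 30074 of the first were found in RefSeq's gene table (GRCh38.p14), from which names come. Promoter sequences are RefSeq's, on GRCh38.p14.

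The intensities were background-corrected with limma's normexp against 437 olfactory receptor probes (offset 16), quantile normalized and taken to log2, because the usable table has no detection p-values. Probes were kept if above the floor on at least 6 arrays, and each gene took its probe with the highest mean over 24 arrays. limma 3.58.1 (R 4.3.3) was fitted to all 24 arrays with 4 groups and no covariate (lmFit, eBayes). Figures and sequences were made with python 3.11.15. The fit was tested on simulated data. Alternatives were the background correction and its offset, the filter, the mean of all probes of a gene, the 12 arrays alone, chip and replicate number as blocks, each chip alone and leaving out each array. Same-numbered arrays of the compared groups deviated together at r of -0.005 to 0.105, so the numbers were not taken as pairs.

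Named are the targets, the 15 largest differences each way among called genes above the floor on all arrays of the brighter group, up to 5 members of each of 47 gene lists with the smallest adjusted p at 1.5-fold or more, and all tested ERBB receptors, pregnancy-specific glycoproteins and BEX and TCEAL genes, 189 genes in all. The comparison and the lists were chosen with earlier results of these data known, so no list carries a test. Of the 75 named genes with further probes above the floor, 9 have one of opposite sign and 44 one whose difference departs by over 1.5 times.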

Additional observations from a re-analysis of the deposited data

Results flagged for a closer look

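The values of each named gene were examined within the NHERF1 and the HER2 knockdown, 356 groups of 6 arrays after leaving out those at the floor on all 6, for a single array whose gap to the nearest of the others is too large a share of the range of its group by Dixon's criterion at 95%. This held in 31 groups, 11 of the NHERF1 and 20 of the HER2 knockdown, where chance gives about 5% of groups. In 13 of them the array was HER2 knockdown replicate 3, on chip 1. Without that array 6338 genes were called.

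On HER2 knockdown replicate 3, CSF1R read 7.66 where the other arrays of its group read 7.99 to 8.02, TAGLN 8.22 (8.48 to 8.59), ACTA2 7.86 (8.01 to 8.10), CD44 8.65 (8.93 to 9.05), FOXO4 6.85 (7.19 to 7.34) and NHERF1 11.17 (11.27 to 11.31). There, SKP2 read 11.09, IGF2R 9.47, LPIN1 9.88, CD14 5.22 and BEX3 11.06, below the others, and SEC24D 7.62 and BEX4 7.61, above them. For CSF1R, TAGLN, ACTA2, CD44, FOXO4 and NHERF1 the call and the direction were kept without that array.

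On the other HER2 knockdown arrays, PFKFB3 read 6.36 on replicate 2, LEP 5.84 on replicate 4, RFC3 8.44 on replicate 5 and FBN2 4.76 on replicate 6, each above the rest of its group. Below the rest were SLC3A2 at 10.94 on replicate 1, TGM2 at 4.66 on replicate 5 and TNFRSF10A at 7.22 on replicate 6. Among NHERF1 knockdown arrays, replicate 1 was lowest for FOS at 7.53, CRYAB at 7.86 and ABCA3 at 4.41 and highest for PFKFB3 at 8.33. Replicate 3 was lowest for CDH5 at 6.59 and highest for FZD2 at 5.53 and H4C8 at 5.51. Replicate 4 was highest for CASP4 at 8.27, GBP2 at 7.59, TPP1 at 7.82 and PSG5 at 4.75. All values are log2 intensities.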

How the results depend on the processing

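The counts of called genes and the differences of NHERF1 and ERBB2 kept their direction under all 22 alternatives. Fold sizes depended on the background: without background correction 76 genes were called at 2-fold higher and 51 lower, and with an offset of 50 it was 137 and 92, while 6518 and 6582 genes were called in all. Leaving out each array in turn gave 3198 to 3250 genes higher and 3036 to 3113 lower, 245 to 255 and 178 to 186 at 2-fold, and differences of -2.98 to -2.94 for NHERF1 and -0.79 to -0.74 for ERBB2. With the replicate number as a block 6536 genes were called and with the chip as a block 6521. On chip 1 alone 4628 were called and on chip 2 alone 5094, each with 3 arrays per group. Averaging all probes of a gene reversed EGFR to 0.062 (limma adjusted p = 0.298) and ERBB3 to 0.013 (limma adjusted p = 0.809). For the 187 named genes other than NHERF1 and ERBB2, 4086 of 4103 values stayed called or not called, with the direction kept where called. A gene called in neither fit could change sign within that count, as PSG2 did on chip 2 alone (-0.006 against 0.056). Of the rest, 9 lost the call without a change of direction, all of them of TCEAL4 or ERBB3. A call was gained by 6, and 2 were the reversals of EGFR and ERBB3. Of 2068 list counts, 1990 stayed within 1.5 times. Probes near the floor, the array number and the unknown number of cultures limit what can be read. A larger offset shrinks folds by its construction. The values without background correction kept the deposited background and also went without the quantile normalization. The part of either in their smaller folds was not tested.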

Other observations

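Of the probes with no gene symbol listed, 5736 were above the floor on at least 6 arrays. They were fitted, and their p-values adjusted, apart from the 12445 genes. Called between the knockdowns (limma) were 1449, 685 higher and 764 lower in the NHERF1 knockdown, with 27 and 39 at 2-fold. Among the 12445 genes 52.3% were called, 26.8% higher and 25.4% lower, with 2.01% and 1.48% at 2-fold. Probe ILMN_3305055 had a mean log2 intensity of 8.99 in the NHERF1 and 6.53 in the HER2 knockdown, and 5.08 in control. ILMN_2138801 had 7.99, 5.60 and 4.51 in the same order. Lower in the NHERF1 knockdown were ILMN_1701933, with 4.46, 7.48 and 4.57, and ILMN_3236821, with 6.45, 8.71 and 10.26. These probes were picked for the size of their differences and are unnamed here.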
